A study of Oryzias latipes and Danio rerio with 6 samples.

Results

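Medaka, the rice fish Oryzias latipes, carries yap1b, which the study's title describes as a Yap family member of teleost fish. The regions described here were those that the authors listed for Yap1b and did not list for Yap1, away from the chromosome ends. They numbered 1090, of 52712 regions in the 8 lists of the series and of 3792 regions in the Yap1b list. They were chosen by position from the 2 positive lists: a row of the Yap1b list was kept when it overlapped no row of the Yap1 list by even 1 bp, lay on chromosome 1 to 24, and had its midpoint more than 1 Mb from both ends. Of 1354 Yap1b regions with no Yap1 overlap, 189 were off the 24 chromosomes and 75 lay near an end, which left the 1090. They are called Yap1b-only regions below. The name describes membership of the deposited lists: absence from the Yap1 list is not a measurement of no Yap1 contact there.

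Yap proteins are the transcriptional co-activators at the end of the Hippo pathway, the kinase cascade that couples cell contact and tension to growth. When the kinases are active, Yap is phosphorylated and held in the cytoplasm. When they are inactive, Yap enters the nucleus and is brought to DNA by partner proteins, above all the TEAD transcription factors, since it has no DNA-binding domain of its own. The comparison below asks what the authors' lists hold for Yap1b where they hold nothing for Yap1.

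Contact with DNA was read by iDamID-seq. The bacterial methylase Dam, joined to the protein of interest, methylates adenine in GATC sites near where the fusion sits. DpnI then cuts only methylated GATC sites, so the listed fragments are expected to begin and end at such sites. Wild-type embryos received mRNA for Dam-Yap1, Dam-Yap1b or Dam-GFP, the control for unspecific methylation. The fusion thus came from injected mRNA rather than from the endogenous gene, and DNA was taken from whole embryos, so the cells in which a contact occurred are not known. The medaka sample labels gave stage 16, while the protocol text placed collection at 80% epiboly. The zebrafish samples of the series are recorded at 80% epiboly. Each of the 3 medaka groups was 1 sample, for which the protocol named 3 replicates of 40 embryos. The lists gave nothing by replicate. Replicate error is therefore unknown, no test between groups was made, and the intervals below (Wilson 95% for shares, order statistics for medians) cover counting of regions only. Read depth was unknown. No sequence of the medaka build was used here, so regions are given by the positions in the deposited lists, without genes or bases.

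Yap1b-only regions made up 36.1% (34.4 to 37.8) of the 3020 Yap1b regions in the inner part of the chromosomes. The other 1930 were shared with Yap1. The Yap1 list held 1311 inner regions of its own. The Yap1b-only regions covered 1183 kb in all, the shared Yap1b regions 2124 kb and the Yap1-only regions 1348 kb.

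No inner region of the positive lists was shorter than 200 bp, which bears on the smallest overlaps below. Among all rows of the medaka positive lists, the smallest distance between a Yap1b and a Yap1 region that did not overlap was 4 bp, and the smallest overlap was 200 bp. The nearest members just inside the rule lay 4 bp from a Yap1 region, where 17 members tied. The first of these in genome order lay on chromosome 3 (28779462 to 28780880), chromosome 4 (25911752 to 25913468) and chromosome 5 (12760237 to 12760703). After 4 bp the next member lay at 12 bp, on chromosome 16 (14767683 to 14768751). Among inner regions outside the rule, the smallest overlaps were 200 bp on chromosome 9 (24222686 to 24222885), 202 bp on chromosome 2 (17090245 to 17090446) and 202 bp on chromosome 6 (17871407 to 17871608). Each of these overlaps covered the whole Yap1b region. On chromosomes 9 and 2 both factors were listed with exactly the same edges. The member closest to the 1 Mb limit lay on chromosome 17 (1000266 to 1001359), and the closest region beyond it on chromosome 13 (989065 to 989733).

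The edges of the lists had a common pattern. A gap of 4 bp is as long as 1 GATC site, and 4 bp was the smallest gap within each of the 4 medaka lists and between every pair of them. Among the shared inner Yap1b regions, 63.2% (61.0 to 65.3) had both edges at the same base as edges of Yap1 regions, and a further 31.8% (29.7 to 33.9) had 1 edge in common. Only 97 of 1930 had neither. The bases in the gaps were not read, so whether each gap is a GATC site was not tested.

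A Yap1 region lay across such a 4 bp gap from 17 of the 1090 members (1.56%, 0.976 to 2.48), which are said here to abut it. In 15 of the 17 the abutting Yap1 region was itself shared with Yap1b. In 13 of the 17 a second Yap1b region abutted the member on that same side, so that the Yap1b list ran on past a common region by 1 further row. These members had a median score of 136 (range 115 to 267) and a median length of 1094 bp. From the other side, 20 of 1311 Yap1-only regions (1.53%, 0.990 to 2.34) abutted a Yap1b region. The intervals of these shares overlap.

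The rule left out every Yap1b region that met a Yap1 region, so distance to Yap1 is close to what the rule used and is a description. The distance to the nearest Yap1 region had a median of 49646.5 bp (45907 to 54383), with quartiles at 13761 and 120641 bp. Within 1 kb of a Yap1 region lay 54 members (4.95%, 3.82 to 6.41), within 10 kb 231 (21.2%, 18.9 to 23.7), and within 50 kb 548 (50.3%, 47.3 to 53.2). Farther than 100 kb away were 327 members (30.0%, 27.4 to 32.8). The Yap1-only regions had a median distance to Yap1b of 50826 bp (46587 to 55604), and 247 of them (18.8%, 16.8 to 21.0) lay within 10 kb. The 2 median intervals overlap. The lists measured to differ in length, with 4212 Yap1 and 3792 Yap1b regions, and no expected distance was computed. From a member to the next region of the Yap1b list itself, the median was similar to that to Yap1, at 53215 bp (47945 to 60621). These 2 distances are not independent. For 675 of 1090 members the nearest other Yap1b region was a shared one, which itself meets a Yap1 region.

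**Figure D1:**
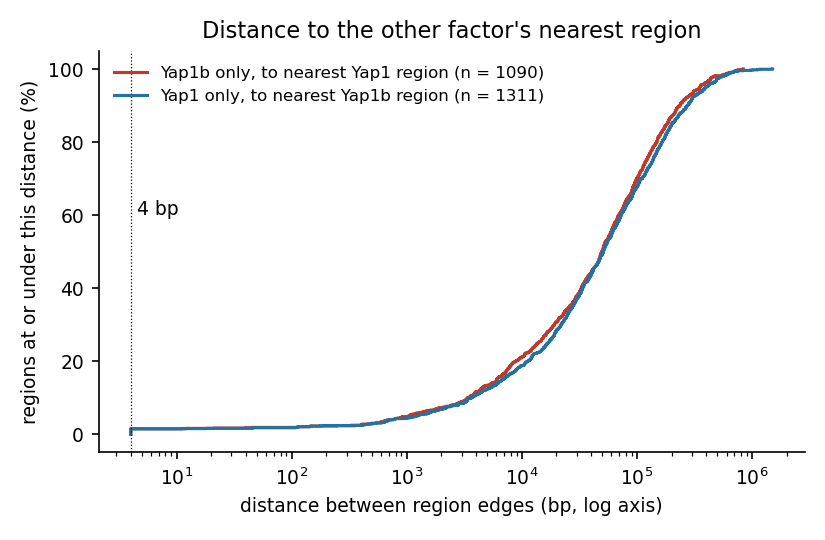
Distance from each region listed for 1 factor only to the nearest region of the other factor, as the cumulative percent of regions against distance in bp on a log axis; the dotted line marks 4 bp. Both curves start with a small step at 4 bp (17 of 1090 Yap1b-only and 20 of 1311 Yap1-only regions) and reach their middle near 50 kb, with medians of 49646.5 and 50826 bp.

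The nearest Yap1 region of a member was a shared one in 635 of 1090 cases (58.3%, 55.3 to 61.2). Its Yap1 score had a median of 121, next to 122 over all inner Yap1 regions. Over the inner Yap1 list as a whole, 1930 of 3241 regions were shared with Yap1b (59.5%, 57.8 to 61.2).

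The 5 members farthest from Yap1 lay on 3 chromosomes. The most distant pair lay on chromosome 11 (12649112 to 12649526, 839303 bp away, score 180; and 12071511 to 12072453, 829613 bp away, score 134). A further pair lay on chromosome 12 (22064489 to 22065268, 754384 bp away, score 115; and 22090794 to 22092692, 728628 bp away, score 131). The remaining one lay on chromosome 22 (2891662 to 2892119, 753193 bp away, score 118), where the nearest Yap1 region was also the place of the nearest other Yap1b region, at the same 753193 bp.

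On chromosome 11 the Yap1 list had no entry over 2247 kb (11241898 to 13488829). The stretch was picked because it holds the member farthest from Yap1. The Yap1b list had 4 regions there, which the rule makes members, since no Yap1 region was present to overlap. They were the 2 named above, one at 11657906 to 11659105 (score 137) and one at 11956851 to 11957362 (score 229). Over all inner chromosomes there were 1.62 members and 2.86 shared Yap1b regions per Mb. In the same stretch the Yap1 control list had 8 regions and the Yap1b control list 6. Those control regions are places that the authors listed for Dam-GFP, and both control lists share that sample. Why the Yap1 list had no entry in the stretch was not tested.

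**Figure D2:**
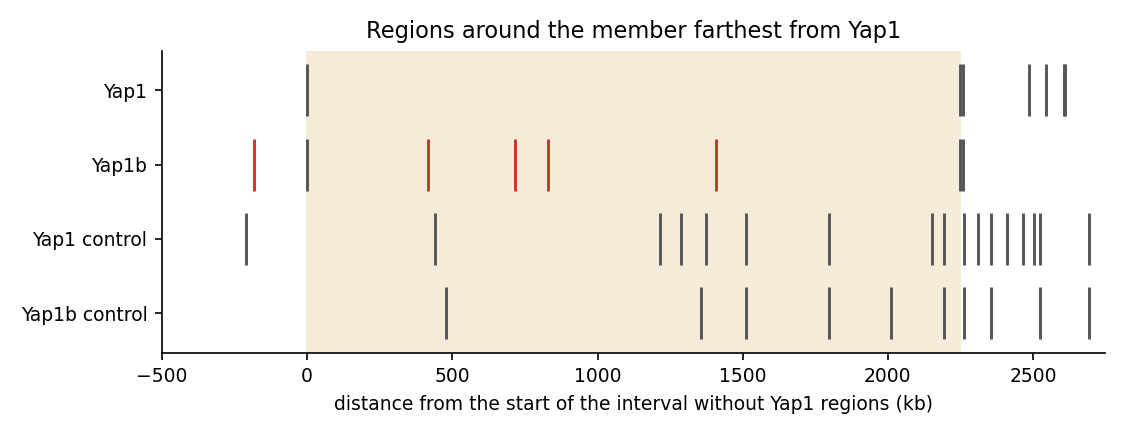
Regions of the 4 medaka lists around the member farthest from Yap1, each drawn as a vertical line at its midpoint against distance in kb from the start of the interval without Yap1 regions, which is shaded; Yap1b-only regions are red and all other regions grey. Inside the 2247 kb of shading, which is free of Yap1 lines by the choice of interval, there are 4 Yap1b lines, beside 8 and 6 control lines.

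Counted over all intervals between 2 neighbouring Yap1 regions of the inner chromosomes, 2440 held no member, 558 held 1, 160 held 2, and 49 held 3. Only 7 held 4, 2 held 5 and 1 held 6. Members beyond the first or last inner Yap1 region of a chromosome are not in these counts. The intervals differ in length, which the counts do not allow for. These fullest intervals were singled out after their counts were seen. The one with 6 lay on chromosome 2 (19205070 to 20279983, 1075 kb), with 4 Yap1 control and 2 Yap1b control regions. Those with 5 lay on chromosome 12 (21310105 to 22821320, 1511 kb), which contains the distant pair above, and chromosome 23 (12000768 to 13304855, 1304 kb). The 5 longest inner stretches without a Yap1 region, of 2849.9 to 6205 kb, held 0 to 3 Yap1b regions each. They held 0 to 16 Yap1 control and 1 to 16 Yap1b control regions.

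Score, which the authors gave to each region without stating its quantity, comes from the same contrast of Dam-Yap1b with Dam-GFP that placed the regions in the list, so it is a description here. Yap1b-only regions lay in the low part of the range: their scores ran from 112, the lowest of the list, through a median of 140 (138 to 142) to 611. Shared Yap1b regions had a median of 193 (190 to 196) and reached 1000. Yap1b-only regions made up 62.6% (56.9 to 67.9) of the inner Yap1b regions that scored 112 to 119. They made up 53.5% (50.2 to 56.8) at 120 to 149, 34.3% (31.0 to 37.7) at 150 to 199 and 19.8% (17.0 to 23.1) at 200 to 299. At 300 to 499 they were 37 of 329 (11.2%, 8.27 to 15.1), and from 500 upward 3 of 93 (3.23%, 1.10 to 9.06). Each step to a higher class had fewer Yap1b-only regions in proportion. The Yap1-only regions were placed alike within their own list, with a median score of 104 (102 to 107) against 141 (137 to 146) for shared Yap1 regions and a lowest score of 79. The lists have different lowest scores, so scores are not compared between them.

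**Figure D3:**
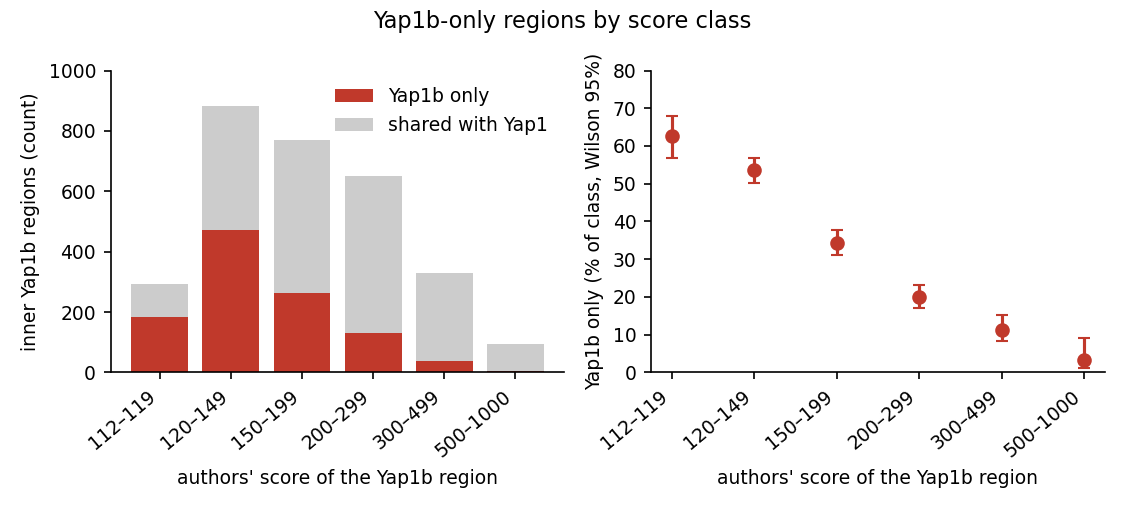
Inner Yap1b regions by class of the authors' score: left, stacked counts of Yap1b-only (red) and shared (grey) regions; right, the Yap1b-only percent of each class with Wilson 95% intervals. The points descend from 62.6% at the left to 3.23% at the right, where 3 of 93 regions were Yap1b only.

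The 5 highest-scored members were described by position and length. The first, with a score of 611, was on chromosome 20 (16276048 to 16276932). A score of 568 belonged to chromosome 5 (27780288 to 27780599), 535 to chromosome 13 (16614581 to 16614910), 497 to chromosome 9 (21081382 to 21081748) and 478 to chromosome 13 again (4426786 to 4427188). Of the 5, the 4 after the first were short, at 312, 330, 367 and 403 bp, all under the first quartile of member lengths (568.25 bp). The one on chromosome 20 spanned 885 bp. Their nearest Yap1 regions were 121462, 38984, 14405, 52492 and 12485 bp away in the same order, so none of the 5 abutted one. The region on chromosome 9 had another Yap1b region at 4 bp.

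Over all 1090 members, score went with neither length nor distance. Spearman's rho across members was 0.06 between score and length, 0.03 between score and distance to Yap1, and 0.01 between length and distance. Regions of 1 sample share library and depth, so these are descriptions. In 4 score classes of about equal size, from the lowest to the highest, the median lengths were 914.5, 958, 983 and 974 bp, and the median distances to Yap1 were 49512, 55435, 45596 and 48735 bp. The distances showed no steady order with score.

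Yap1b-only regions had a median length of 954 bp (916 to 998), with quartiles at 568.25 and 1481 bp and a range from 200 to 4846 bp. Shared Yap1b regions had a median of 930.5 bp (887 to 970), an interval that overlaps that of the members. Yap1-only regions were shorter at the median, at 838 bp (779 to 885), and so were the inner Yap1b control regions, at 806 bp (789 to 823). Within the Yap1 list, shared regions had a median of 1010 bp (964 to 1052), so there the shared regions were the longer ones. Regions under 300 bp made up 5.14% (3.98 to 6.61) of Yap1b-only, 6.17% (5.18 to 7.33) of shared Yap1b and 8.47% (7.08 to 10.1) of Yap1-only regions. At the long end, 76 members (6.97%, 5.61 to 8.64) exceeded 2000 bp, against 196 shared regions (10.2%, 8.89 to 11.6). A longer region has more bases that can meet a region of the other list. Length is therefore tied to the rule, and the lengths of shared and unshared regions are descriptions. Per length class, the Yap1b-only share of inner Yap1b regions was 32.0% (25.5 to 39.2) below 300 bp, 35.2% (31.1 to 39.7) from 300 to 499 bp, 36.9% (33.9 to 40.0) from 500 to 999 bp, 38.3% (35.5 to 41.2) from 1000 to 1999 bp and 27.9% (22.9 to 33.6) from 2000 bp.

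**Figure D4:**
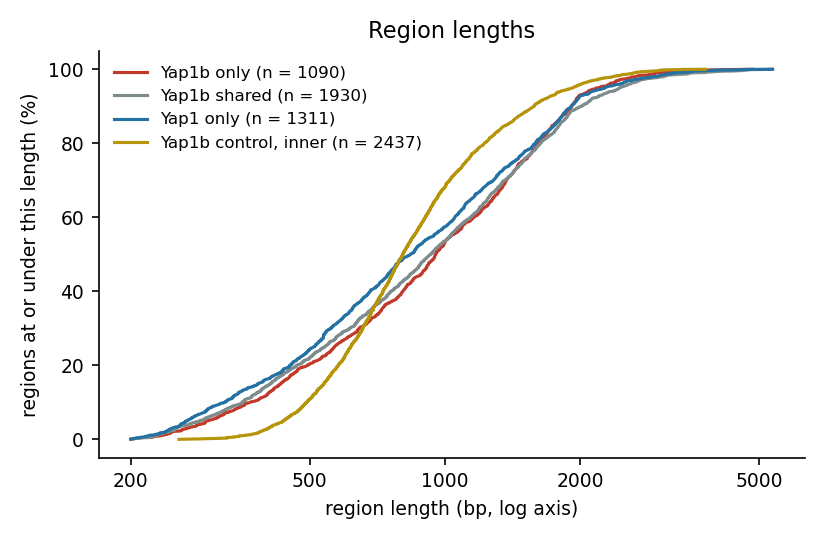
Cumulative percent of regions against region length in bp on a log axis for Yap1b-only, shared Yap1b, Yap1-only and inner Yap1b control regions. The Yap1b-only curve runs close to the shared one (medians of 954 and 930.5 bp), the Yap1-only curve lies to its left through the middle (838 bp), and the control curve is the steepest (quartiles at 618 and 1113 bp).

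The longest member spanned 4846 bp of chromosome 15 (20926656 to 20931501) and scored 182. Next came 4280 bp on chromosome 2 (28217200 to 28221479), scored at 114, and 3873 bp on chromosome 1 (38256683 to 38260555), scored at 156. The list of 5 ended with 3818 bp on chromosome 17 (4738812 to 4742629), scored at 114, and 3620 bp on chromosome 18 (28350830 to 28354449), scored at 230. A pair of them scored 114, close to the list's lowest score of 112. The one on chromosome 15 lay 6743 bp from Yap1 and the one on chromosome 17 lay 7287 bp from it, while the others were 26734 to 89495 bp away.

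Most Yap1b-only regions had no other Yap1b region within 10 kb, and no rate expected by chance was computed. Another Yap1b region of any kind lay within 10 kb of 217 members (19.9%, 17.6 to 22.4), against 538 shared Yap1b regions (27.9%, 25.9 to 29.9). These intervals do not overlap, but neighbours count each other, so the regions are not independent and the intervals do not stand for a test. The Yap1 list was alike, with 297 Yap1-only regions (22.7%, 20.5 to 25.0) and 554 shared Yap1 regions (28.7%, 26.7 to 30.8) within 10 kb of another Yap1 region. The interval of the Yap1-only regions overlaps that of the members. The median distance to the next Yap1b region was 53215 bp (47945 to 60621) for members and 40823 bp (36546 to 44886) for shared regions. Where a member had a Yap1b neighbour within 10 kb, the neighbour was a shared region in 137 of 217 cases (63.1%, 56.5 to 69.3). Among shared regions with such a neighbour it was shared in 404 of 538 (75.1%, 71.3 to 78.6). Of all inner Yap1b regions, 1930 of 3020 were shared, a proportion close to that among the members' neighbours within 10 kb. A neighbouring Yap1b region across 4 bp was present for 34 members (3.12%, 2.24 to 4.33) and 110 shared regions (5.70%, 4.75 to 6.82). That closest neighbour was a shared region for 14 of the 34 members (41.2%, 26.4 to 57.8). For the 110 shared regions it was shared in 96 cases (87.3%, 79.8 to 92.3), so abutting rows were mostly of the same kind. In the Yap1 list, 43 Yap1-only regions (3.28%, 2.44 to 4.39) had a neighbouring Yap1 region across 4 bp. Shared and Yap1b-only regions come from the same list and were split by the rule, so a cluster that meets Yap1 in part can be cut into both kinds.

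Joined at up to 10 kb, the members formed 1003 single regions, 42 pairs and 1 group of 3. The group of 3 lay on chromosome 14 within 3228 bp (32307611 to 32310838), with scores of 117, 156 and 201, and came as near as 592 bp to a Yap1 region. The first pairs in genome order lay on chromosome 1. One of them (5328975 to 5329947) held regions of 313 and 656 bp across a 4 bp gap, with scores of 216 and 123. The other (24663883 to 24665849) held regions of 970 and 993 bp across a 4 bp gap, with scores of 264 and 268, and stood 106780 bp from Yap1.

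None of the 1090 members overlapped a Dam-GFP control region, which allows a share of up to 0.275% by 3 counts of the total and 0.351% by the upper Wilson bound. These limits bear on the Yap1 control list only. The Yap1b control list gives no such limit, since it holds the opposite direction of the contrast that gave the members, and no Yap1b region anywhere overlapped it. The Yap1 control list belongs to the other contrast but shares the Dam-GFP sample, so the design limits overlap with it as well. The 0 is therefore not read as a trait of the members. Shared Yap1b regions overlapped a control region of either list in 1 of 1930 cases and Yap1-only regions in 0 of 1311. A control region of either list lay within 10 kb of 174 members (16.0%, 13.9 to 18.3), of 293 shared regions (15.2%, 13.6 to 16.9) and of 208 Yap1-only regions (15.9%, 14.0 to 17.9). These 3 intervals overlap. For the Yap1 control list alone the members' share was 12.3% (10.5 to 14.4), and for the Yap1b control list alone 7.71% (6.27 to 9.44). The first of these lists is the longer one.

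Yap1b-only regions were spread over all 24 chromosomes, at 1.62 per Mb of inner sequence, beside 2.86 per Mb for shared Yap1b and 1.94 per Mb for Yap1-only regions. The length of a chromosome was taken as its last listed base. Their share of inner Yap1b regions averaged 36.3% ± 5.62 (SD over 24 chromosomes). On 22 chromosomes the interval of that share held the overall 36.1%. The exceptions, singled out after their values were seen, were chromosome 8, at 20 of 108 regions (18.5%, 12.3 to 26.9), and chromosome 20, at 38 of 136 (27.9%, 21.1 to 36.0).

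Chromosome 8 had few Yap1b-only regions and many of the other kinds. The other chromosomes named here were also picked after their values were seen. It held 0.84 Yap1b-only regions per Mb, while its shared regions (88, or 3.69 per Mb) and its Yap1-only regions (69, or 2.89 per Mb) were above the figures for all chromosomes. Chromosome 20 had 1.67 Yap1b-only regions per Mb, near the figure over all chromosomes, and 4.31 shared ones. Chromosome 2, with 0.86 Yap1b-only regions per Mb, was low in every kind, at 0.96 shared and 0.89 Yap1-only regions per Mb. Its Yap1b-only share was 25 of 53 (47.2%, 34.4 to 60.3). Over 7796 kb of chromosome 2 (7020520 to 14816454) the Yap1b list had no entry. The Yap1 list had 2 there, the Yap1 control list 6 and the Yap1b control list 7, so the low figures are not spread evenly along it. Over the 675 Mb of all inner chromosomes the Yap1 control list had 3484 regions and the Yap1b control list 2437. Both control lists were thus sparse in that stretch as well. Chromosome 6 had 2.28 Yap1b-only regions per Mb, from 56 regions, and chromosome 22 had 2.10. Yap1-only regions outnumbered Yap1b-only regions on 20 chromosomes, and on the other 4 the order was the opposite, as on chromosome 10 with 46 Yap1b-only and 32 Yap1-only regions. The Yap1 list is the longer one, with 3241 inner regions against 3020, and each list had 1930 shared ones. The larger number of Yap1-only regions therefore follows from the lengths of the lists. Without chromosome 8 the overall Yap1b-only share was 36.7%.

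**Figure D5:**
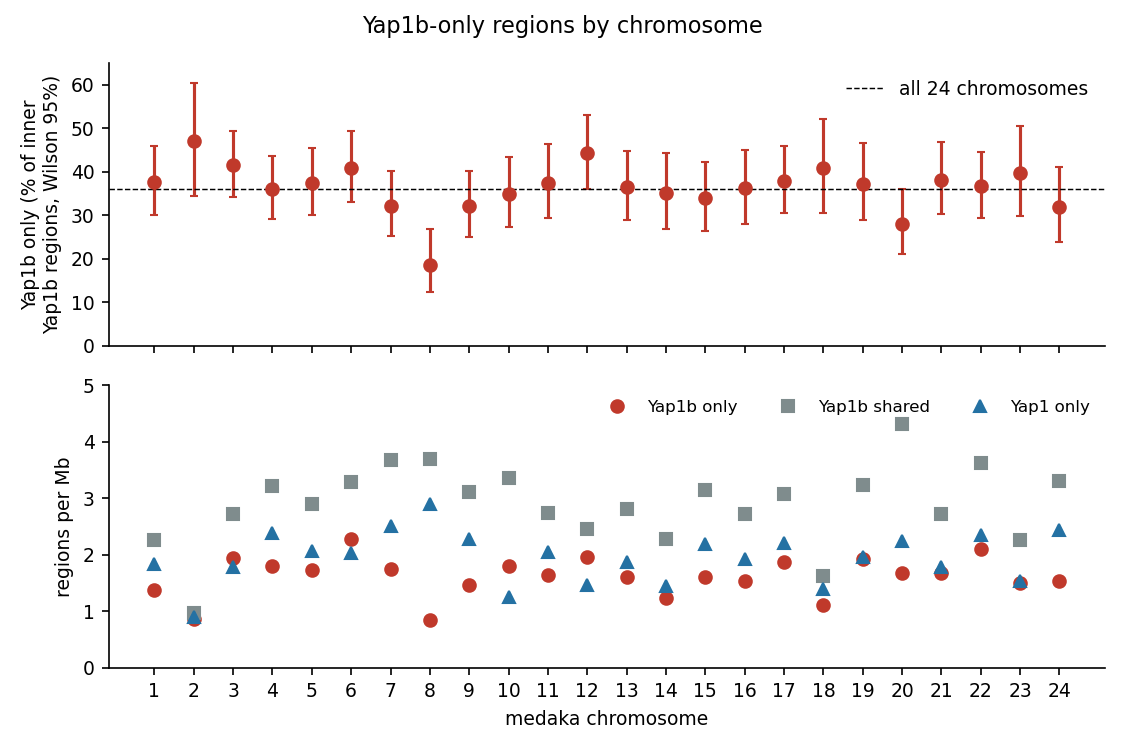
Top, Yap1b-only percent of the inner Yap1b regions of each chromosome with Wilson 95% intervals, the dashed line being all 24 chromosomes (36.1%); bottom, Yap1b-only, shared Yap1b and Yap1-only regions per Mb. Chromosome 8 is the lowest point at 18.5%, with 0.84 Yap1b-only regions per Mb beside 3.69 shared ones, and chromosome 2 is low in all kinds.

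Across the 24 chromosomes, Yap1b-only regions per Mb went with shared regions per Mb at Pearson's r = 0.48 (Spearman's rho = 0.39) and with Yap1-only regions per Mb at r = 0.18 (rho = 0.15). In 661 full windows of 1 Mb, the number of members went with the number of shared regions at r = 0.33 (rho = 0.33) and with the number of Yap1-only regions at r = 0.26 (rho = 0.27). The points share libraries and depth, so these are descriptions. Of the windows, 171 held no member, 194 held 1 and 33 held 5 or more. Members per window had a mean of 1.60 and a variance of 2.08. The fullest window, singled out after the counts were seen, held 7 members, on chromosome 13 (18000001 to 19000000), together with 2 shared Yap1b and 8 Yap1-only regions. In 13 windows there was a member and no Yap1 region at all. In 3 equal parts of the inner chromosome, counted from its listed start, the members fell at 29.2% (26.6 to 31.9), 36.7% (33.9 to 39.6) and 34.1% (31.4 to 37.0), and shared regions at 31.7% (29.7 to 33.8), 34.5% (32.4 to 36.7) and 33.8% (31.7 to 35.9).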

How the data were processed

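The medaka samples (Dam-Yap1, Dam-Yap1b and Dam-GFP) came as 4 deposited region lists. The submitters' processing notes name Bowtie2, SAMtools, bedtools and cutadapt, with no version. The labels and lists state no region caller, threshold, pooling of replicates or medaka build. The authors' score in each deposited list was used only to rank and class regions within a list. Each control list was tied to a factor by its name.

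Overlaps, gaps, shares and medians were computed with Python 3.11.15, pandas 2.3.3 and scipy 1.17.1, with 1 bp as overlap, and the interval functions were checked against bedtools 2.31.1 and on simulated data with planted overlaps. Positions are 1-based. The regions and measures were chosen with earlier results of these data known. Named regions are the 5 highest-scored, 5 longest and 5 farthest from Yap1, the 3 fullest groups, and those at the rule's edges; others are said to be chosen after their values were seen. The alternatives changed the overlap rule, the score thresholds, the width of the ends and the least length. Genes, sequences and the zebrafish lists were not analysed here.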

Additional observations from a re-analysis of the deposited data

How the results depend on the processing

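The 6 summary values were recomputed under 9 alternatives, of which 2 (abutting regions counted as shared, and a least length of 300 bp) were chosen after seeing the data. Of 53 values, 38 stayed within the interval of the reported value, or within 1.5 times the reported count, and 15 moved. The 38 include the share that overlaps a control region under all 9 alternatives, which the design limits. They also include counts of Yap1b-only regions, which come from the same regions as the share. The tally is therefore not a measure of how stable the results are. The Yap1b-only share of inner Yap1b regions (36.1%) became 20.6% and the number 318 with Yap1b scores at or above the list's median, and 60.4% and 1824 with Yap1 scores at or above theirs. It became 40.4% when 50% coverage was needed for sharing, 34.3% when Yap1 within 1 kb counted as shared, and 28.4% when Yap1 within 10 kb did. The median length became 1019 bp with 50% coverage. The share within 10 kb of Yap1 (21.2%) became 29.5% with 50% coverage, 17.1% with the 1 kb rule, 18.6% with the Yap1b score limit and 12.4% with the Yap1 score limit, and has no value under the 10 kb rule. The share within 10 kb of another Yap1b region (19.9%) became 16.8% with the 1 kb rule, 6.87% with the 10 kb rule and 11.0% with the Yap1b score limit. The rules themselves add or remove the regions nearest to Yap1, and score limits shorten a list. Ends of 2 Mb, no ends left out and both added alternatives moved none of the 6 values. No paired analysis was possible because each group is 1 sample. Depth is unknown, so how many Yap1b-only regions fell just under the authors' limit for Yap1 cannot be told.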
